A study of Mus musculus with 6 samples.

Results

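Glycolysis, the export of its lactate and the pentose phosphate path were followed through 38 genes in mouse KP cells, of 48526 gene identifiers counted in all. The genes were taken by symbol from a list of glucose transporters, the enzymes of glycolysis and their regulators, lactate dehydrogenases and lactate transporters, pyruvate dehydrogenase kinases, the enzymes of the pentose phosphate path, and Txnip. All 38 symbols were found, and 35 of them were among the 14531 genes that passed the filter on low counts. The remaining 3, Slc2a3, Ldhb and Pdk4, had too few counts to be tested. The list was drawn up with it already known that these genes differ in direction between lines, so the values within lines are a description.

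The study compared 3 stable lines of KP cells, each made with a puromycin-selected vector (pLKO.1-Tet on) that expresses a hairpin RNA against Npm1 when doxycycline is added. The lines are called here line 3, line 4 and line 5 after their hairpins (shNpm1-3, shNpm1-4 and shNpm1-5). Each line was sequenced after 100 ng/ml doxycycline, the knockdown group, and without doxycycline, the control group, which gave 3 libraries per group and 1 per line and condition. KP is the name of the cell type in the labels, which say no more of its origin, and the keratin genes Krt7, Krt8, Krt18 and Krt19, defining markers of simple epithelium, were at 2214 to 5932 CPM (counts per gene scaled to the library total by TMM) in all 6 libraries. No library had doxycycline without a hairpin against Npm1, so an effect of the drug and an effect of the knockdown cannot be told apart. Nothing in the labels shows separate cultures of a line, and p-values therefore measure the spread between lines with different hairpins. In bulk RNA, fewer cells of a type and less RNA per cell cannot be told apart.

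Counts in genes ranged from 24391198 to 27341036 per library, and a floor of 3 counts corresponded to 0.0991 to 0.137 CPM. Npm1, which encodes the nucleolar protein nucleophosmin, was at 67.8, 245 and 399.7 CPM with doxycycline in lines 3, 4 and 5, against 2002, 1851 and 1924 CPM without it. Line 3 thus kept 3.39% of its Npm1 level, line 4 kept 13.2% and line 5 kept 20.8% (log2 fold change -3.02, SE 0.49, edgeR quasi-likelihood test, adjusted p = 0.0115). The doxycycline library of line 3 stood apart in processing, with the lowest scaling factor (0.896, the others 0.971 to 1.11) and the largest share of reads assigned to no gene (47.7%, the others 43.7% to 46.0%). Results that rest on it are given with and without it. Of the listed markers of macrophages 9 of 13 tested were higher with doxycycline, against 0.95% of all genes tested (edgeR, adjusted p under 0.05). The other 4, Cd68, Cd14, Mrc1 and Ptprc, did not pass, and Ptprc was lower in each line. Of those of T lymphocytes 8 of 9 tested were lower, against 1.31% of all genes tested. The summed CPM of the macrophage list without Mrc1 was 136 to 276 with doxycycline and 54.7 to 56.6 without (with Mrc1 counted, 349 to 517 with doxycycline and 405 to 469 without), and without doxycycline Adgre1 was at 0 in 1 library and Fcgr1 in 2. The T lymphocyte list summed to 0.842 to 3.85 CPM with doxycycline and 14.6 to 20.8 CPM without, and Cd3d and Nkg7 were at 0 in every doxycycline library. Their part in the results was not tested.

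Glycolysis splits glucose into pyruvate in the cytosol, and lactate dehydrogenase turns pyruvate into lactate, which monocarboxylate transporters carry out of the cell. The pentose phosphate path branches off after the hexokinase step and yields NADPH and ribose phosphate for nucleotides. Proliferating and transformed cells often run both paths at a high rate, and the transcription factors HIF-1, Myc and the glucose-responsive MondoA and ChREBP, partners of Mlx, are known to act on many of these genes.

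Promoter sequences are shown because the factors named above bind short motifs near gene starts. A link between these motifs and the ratios within lines was not tested. RefSeq promoters (GRCm38.p6, the build mm10 of the counts; 250 bases before to 50 after a gene start) were matched for 37 of the 38 members, all except Slc2a3. Read on both strands, ACGTG, a core of the HIF-1 motif, stood in the promoters of 18 of 37 members (48.6%) and of 21.8% of all genes with a promoter in the table. Counted per promoter window of equal length, ACGTG stood in 22 of 57 windows of the members (38.6%) and in 19.6% of all windows. CACGTG, the E box read by Myc, MondoA and ChREBP, contains ACGTG on both strands, so each CACGTG also counts as ACGTG. It stood in the promoters of 6 of 37 members (16.2%) and of 8.09% of all genes. Counted per window, CACGTG stood in 6 of 57 windows of the members (10.5%) and in 7.15% of all windows. A pair of exact E boxes spaced as in the carbohydrate response element stood in 0 member promoters and in 0 of all windows. Pairs with an inexact box were not searched for. With 0 matches in all windows, this search cannot tell whether a member has or lacks the element. At least 2 separate matches to ACGTG stood in the promoters of 8 members, and the sequences of the 3 with the highest level per length, Ldha, Pgk1 and Pkm, are given 5′ to 3′ on the plus strand with each match in capitals, where CACGT is ACGTG on the minus strand.
Ldha promoter, chr7:46845554-46845853, plus strand: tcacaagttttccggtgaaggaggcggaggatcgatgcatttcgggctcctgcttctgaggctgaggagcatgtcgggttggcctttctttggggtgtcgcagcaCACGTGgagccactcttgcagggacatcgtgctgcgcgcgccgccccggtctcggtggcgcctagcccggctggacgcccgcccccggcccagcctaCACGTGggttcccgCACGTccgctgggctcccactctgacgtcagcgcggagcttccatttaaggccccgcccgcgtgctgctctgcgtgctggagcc
Pgk1 promoter, chrX:106186850-106187149, plus strand: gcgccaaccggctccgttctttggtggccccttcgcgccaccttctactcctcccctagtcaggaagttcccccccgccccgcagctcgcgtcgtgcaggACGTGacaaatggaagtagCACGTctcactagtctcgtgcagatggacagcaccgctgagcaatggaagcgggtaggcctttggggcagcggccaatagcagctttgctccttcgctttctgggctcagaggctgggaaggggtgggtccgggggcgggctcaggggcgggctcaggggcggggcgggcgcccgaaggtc
Pkm promoter, chr9:59656977-59657276, plus strand: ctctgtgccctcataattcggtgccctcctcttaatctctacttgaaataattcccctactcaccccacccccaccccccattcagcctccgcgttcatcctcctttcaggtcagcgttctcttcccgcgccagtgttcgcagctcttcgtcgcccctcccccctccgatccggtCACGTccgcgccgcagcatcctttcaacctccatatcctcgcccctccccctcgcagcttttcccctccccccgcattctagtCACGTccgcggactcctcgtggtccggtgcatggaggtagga

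The Ldha window held 3 matches, beginning at -145, -48 and -34 from the gene start, and 2 of them were the full E box CACGTG. In the Pgk1 window the 2 matches began at -150 and -131, and in the Pkm window at -75 and 8. A match is a run of letters and was not tested as a binding site. The 18 members with ACGTG had median log2 ratios, doxycycline over none, of 0.16, -0.53 and -0.41 in lines 3, 4 and 5. The 17 tested members without it had medians of 0.18, -0.40 and -0.26. The medians of both sets thus lay above 0 in line 3 and below 0 in lines 4 and 5. Single members of each set lay on both sides of 0 in every line.

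Levels were compared between genes as TPM, in which counts are divided by exon length before they are scaled to the library. Ldha, the muscle-type subunit of lactate dehydrogenase, was the highest member at 3665 ± 422 TPM with doxycycline and 4026 ± 23.2 TPM without (SD, n = 3 each). It was followed by Aldoa, the aldolase that splits fructose bisphosphate, at 2375 ± 372 TPM with doxycycline and 2797 ± 201 TPM without. Pgk1, Gapdh, Tpi1 and Pkm came next, with group means between 1427 and 2270.2 TPM, and Eno1 followed at 351 ± 79.2 TPM with doxycycline and 442 ± 78.0 TPM without.

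Ldha was above Aldoa in every library, whereas the values of Gapdh, Tpi1 and Pkm overlapped over the 6 libraries. The lowest members were Slc2a3 at 0.0420 ± 0.0425 TPM with doxycycline and 0.114 ± 0.0848 TPM without, Pdk4 at 0.187 ± 0.0863 TPM with it and 0.288 ± 0.0699 TPM without, and Ldhb at 0.755 ± 0.214 TPM with it and 0.435 ± 0.160 TPM without. The 38 members together made up 2.27%, 1.98% and 1.94% of the counts in genes with doxycycline in lines 3, 4 and 5, against 2.18%, 2.50% and 2.35% without. Summed as TPM they were at 15689, 14752 and 14427 TPM with doxycycline, against 16059, 18183 and 17036 TPM without. In lines 4 and 5 both sums were lower with doxycycline, while in line 3 the share of counts was higher and the TPM sum lower, so the direction of the sum in line 3 turned with the measure.

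**Figure D1:**
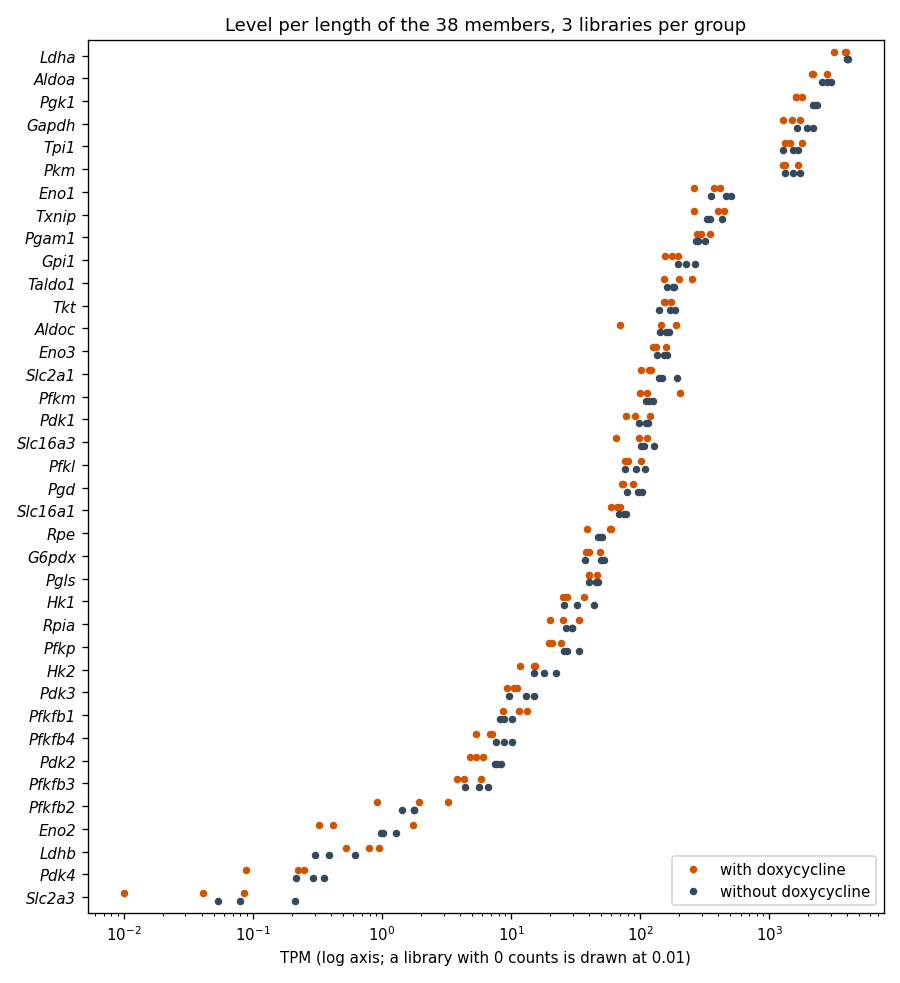
Level per length of the 38 members in TPM on a log axis, ordered by the mean of all 6 libraries, with 3 points with doxycycline and 3 without for each gene. Ldha, Aldoa, Pgk1, Gapdh, Tpi1 and Pkm form the top block, and Ldhb, Pdk4 and Slc2a3 lie at the bottom, where a library with 0 counts is drawn at 0.01.

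Within most families of related enzymes a single gene carried the larger part of the TPM in every library. Ldha held 99.975% to 99.992% of the TPM of Ldha and Ldhb, and Slc2a1, the basal glucose transporter, held 99.89% to 100.0% of Slc2a1 and Slc2a3. Aldoa held 93.6% to 96.9% of the aldolases, Pdk1 82.1% to 87.3% of the pyruvate dehydrogenase kinases, and Eno1, the widely expressed enolase, 67.6% to 76.5% of the enolases, with Eno3, the muscle form, making up nearly all the rest. Hk1, the hexokinase of most tissues, held 58.9% to 70.5% against Hk2, the form often high in tumours. These shares depend on the summed exon length used as divisor. It was 5379 bases for Eno1 and 1739 for Eno3, which averaged 938 and 104 CPM without doxycycline.

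Phosphofructokinase was split among its 3 genes. Pfkm, the muscle form, held 51.0%, 61.6% and 53.2% with doxycycline in lines 3, 4 and 5, against 51.9%, 46.9% and 49.7% without. This split also depends on length. Summed exons were 3340 bases for Pfkm and 13401 for Pfkp, which averaged 156 and 152 CPM without doxycycline. Slc16a1 held 36.998%, 37.9% and 51.7% of the summed TPM of the lactate transporters Slc16a1 and Slc16a3 with doxycycline, against 42.2%, 38.005% and 39.1% without. The doxycycline library of line 5 was the only one in which Slc16a1 was above Slc16a3 in TPM, and the groups overlapped. In CPM Slc16a1 was below Slc16a3 in that library too, at 115 against 129, so the order depends on the exon lengths. Only the share of the gene listed first in each of the 8 sets was tested, here Pfkl and not Pfkm. None of these 8 shares passed the test between the groups (exact 2-sided permutation test, p of 0.2 to 1.0, Benjamini-Hochberg adjusted p of 0.64 to 1.0), where 3 against 3 libraries allow no p below 0.1. Among the untested shares, Pfkp held 7.48% to 10.5% with doxycycline and 10.8% to 12.6% without. Pdk2 held 4.385% to 5.18% with it and 5.84% to 6.60% without. In the other untested shares the groups overlapped.

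**Figure D2:**
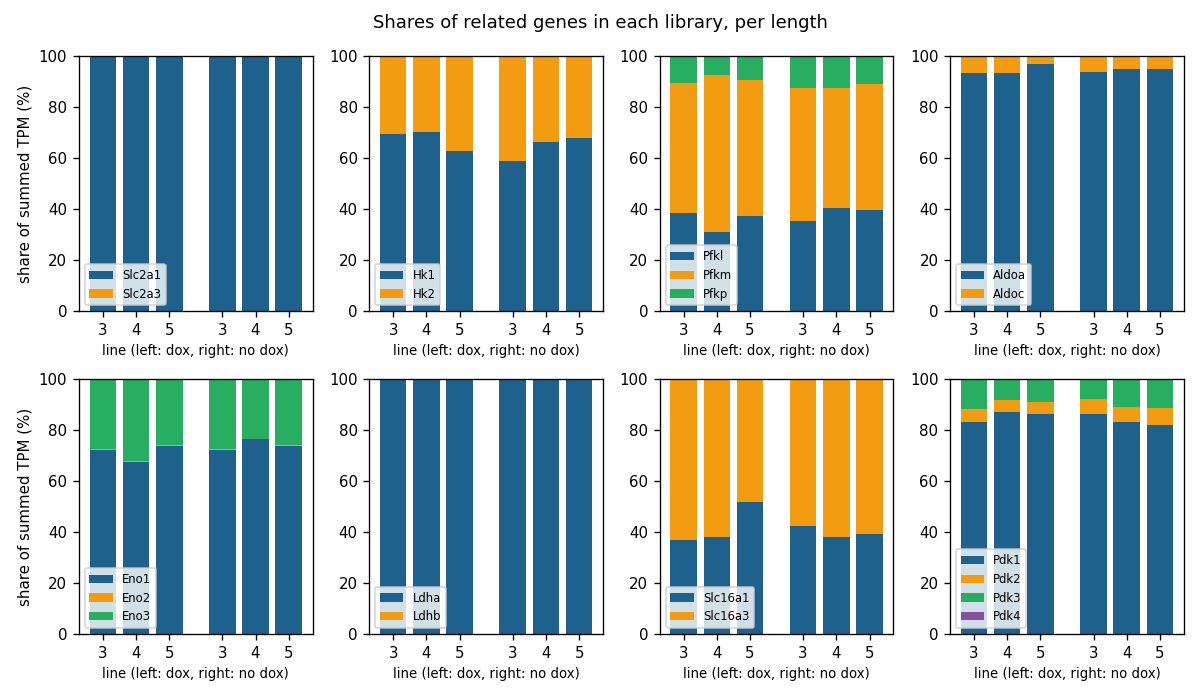
Share of the summed TPM held by each gene of 8 sets of related genes, in percent, with the 3 doxycycline libraries at the left and the 3 without doxycycline at the right of each panel. Ldha and Slc2a1 fill their bars, and the phosphofructokinases are split among 3 genes. In TPM, though not in CPM, Slc16a1 is above Slc16a3 in the doxycycline library of line 5 alone.

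No tested member passed the test of doxycycline against none, in which the spread is that between lines. The edgeR quasi-likelihood test called 0 of 35 higher and 0 of 35 lower at a Benjamini-Hochberg adjusted p under 0.05, where 0.95% of all genes tested were called higher and 1.31% lower (2.26% in all). Adjusted p ran from 0.127 to 0.990, DESeq2 also called 0 of 35 against 4.95% of all genes, edgeR with the line as a block called 0 of 35 against 1.65%, and edgeR with offsets for transcript length and GC content 0 of 35 against 2.12%. At an unadjusted p under 0.05 there were 5 lower members against 7.95% of all genes, and 0 higher against 8.33%. The fitted log2 fold change was below 0 for 27 of 35 members, against 49.6% of all genes. Its median was -0.18 over the members, within a range of -0.56 to 0.26, and 0.00 over all genes. Leaving out line 3 moved the members' median to -0.36 and leaving out its doxycycline library to -0.32, while it was -0.08 without line 4, -0.12 without line 5, -0.10 without the doxycycline library of line 5 and -0.11 with offsets for length and GC content.

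The 5 members of small unadjusted p, Slc2a1, Hk2, Pfkp, Pgk1 and Pdk2, were also the members whose groups did not overlap, each lower with doxycycline. Over all genes 11.2% had groups that did not overlap with doxycycline lower and 11.3% with doxycycline higher, against 5 and 0 of 35 members. In all other tested members the values with doxycycline reached into those without.

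**Figure D3:**
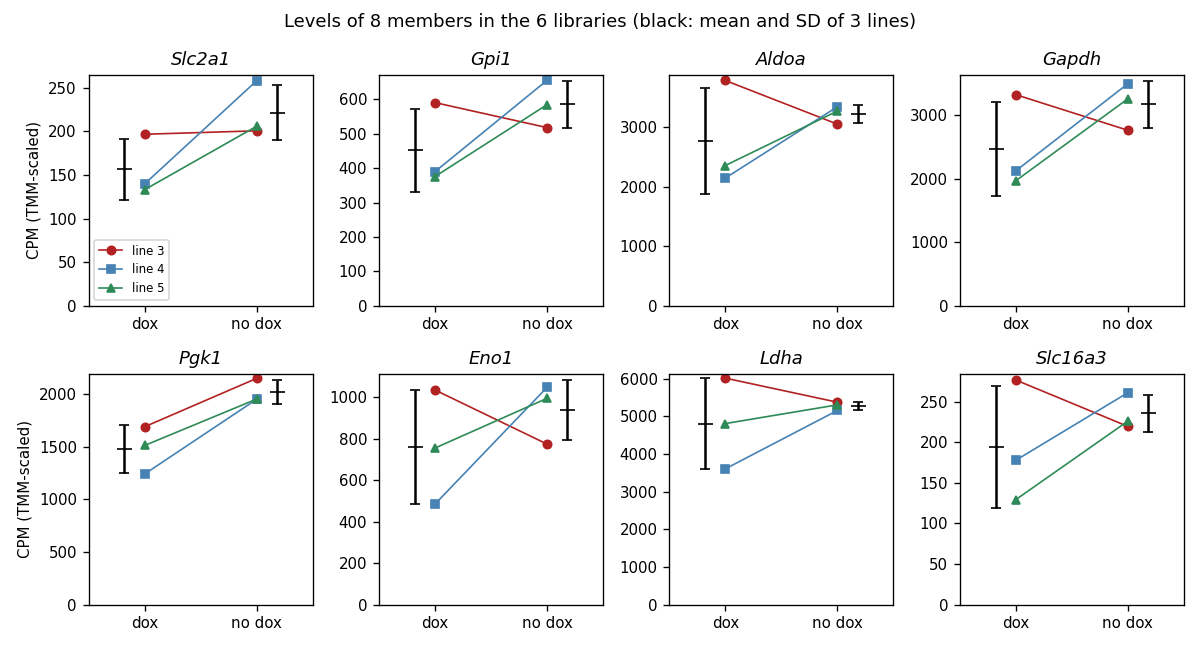
Levels of 8 members in the 6 libraries in CPM on axes that start at 0, with a line joining the 2 libraries of each cell line and black bars for the mean and SD of 3 lines. Slc2a1 and Pgk1 have groups that do not overlap, while for Gpi1, Aldoa, Gapdh, Eno1, Ldha and Slc16a3 line 3 is higher and lines 4 and 5 are lower with doxycycline.

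When the doxycycline library of line 3 was left out, 9 of 37 members then tested were lower and 0 higher, against 5.97% and 4.7% of all genes (10.7% in all; edgeR, adjusted p under 0.05). The 9 were Slc2a1, Gpi1, Pfkp, Aldoa, Gapdh, Pgk1, Eno2, Slc16a3 and Pdk2. The list was drawn up with the opposite direction of line 3 known, so these calls, and the adjusted p of single genes without that library, describe the other 5 libraries and are no independent test. When both libraries of line 3 were left out, 4 of 36 members were lower, Slc2a1, Gpi1, Aldoa and Gapdh, and 0 were higher, against 3.16% and 2.14% of all genes (5.3% in all). Leaving out any other library or line called 0 members.

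Within lines, most members had ratios above 0 in line 3 and below 0 in lines 4 and 5. The median log2 ratio of the 35 tested members, doxycycline over none after adding 0.5 CPM, was 0.16 in line 3, -0.43 in line 4 and -0.32 in line 5, while that of all genes tested was 0.00, -0.01 and 0.00. In line 3 there were 23 of 35 members higher with doxycycline, in line 4 there were 5 and in line 5 there were 6, where 50.0%, 49.3% and 48.8% of all genes were higher. Members higher in line 3 and lower in both others numbered 20 of 35, against 16.4% of all genes. The opposite order, line 3 lower and both others higher, held for 3 members, Pfkfb1, Pfkfb2 and Rpe, against 15.0%. Lower in all 3 lines were 8 members, Slc2a1, Hk2, Pfkp, Pfkfb3, Pfkfb4, Pgk1, Pdk1 and Pdk2, against 19.5%, and higher in all 3 was 1, Taldo1, against 19.1%. Pfkm, Rpia and Txnip had other orders of signs.

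Past 1.5-fold in a line, 1 of 35 members was lower and 0 higher in line 3, where 9.36% and 6.51% of all genes were. In line 4 there were 11 lower and 1 higher, against 10.4% and 9.61%, and in line 5 there were 7 lower and 0 higher, against 7.66% and 5.17%. Lower by more than 1.5-fold in both line 4 and line 5 were Slc2a1, Gpi1, Gapdh, Eno2 and Pdk2. Scaling mattered to the size of these ratios. With library totals in place of TMM scaling, the median over all genes moved to -0.10, 0.11 and 0.06 in lines 3, 4 and 5, and the members' medians lay 0.15 above it in line 3 and at -0.41 and -0.30 from it in lines 4 and 5. On that scale 16 of 35 members were higher in line 3 and lower in both others, against 9.04% of all genes, and with the trend on transcript length and GC content removed 16 of 35 were, against 13.3%. Removing that trend also made the ratios of line 5 smaller, with members' medians of 0.17, -0.35 and -0.18 in lines 3, 4 and 5, which lay at 0.16, -0.38 and -0.19 from the medians of all genes. Each line had 1 library per condition, so the difference between lines could not be tested. Markers of epithelium also differed between lines. Their summed CPM was 16540.0, 11846 and 15021 with doxycycline in lines 3, 4 and 5, against 15463, 17781 and 17380.0 without. Higher in line 3 and lower in both others were 4 of 8, against 16.4% of all genes with TMM scaling. Of the 8, Cldn4, a tight junction protein, was lower with doxycycline and none was higher (edgeR, adjusted p under 0.05). Of all genes 1.31% were called lower and 0.95% higher. The part of these markers in the members' values was not tested.

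**Figure D4:**
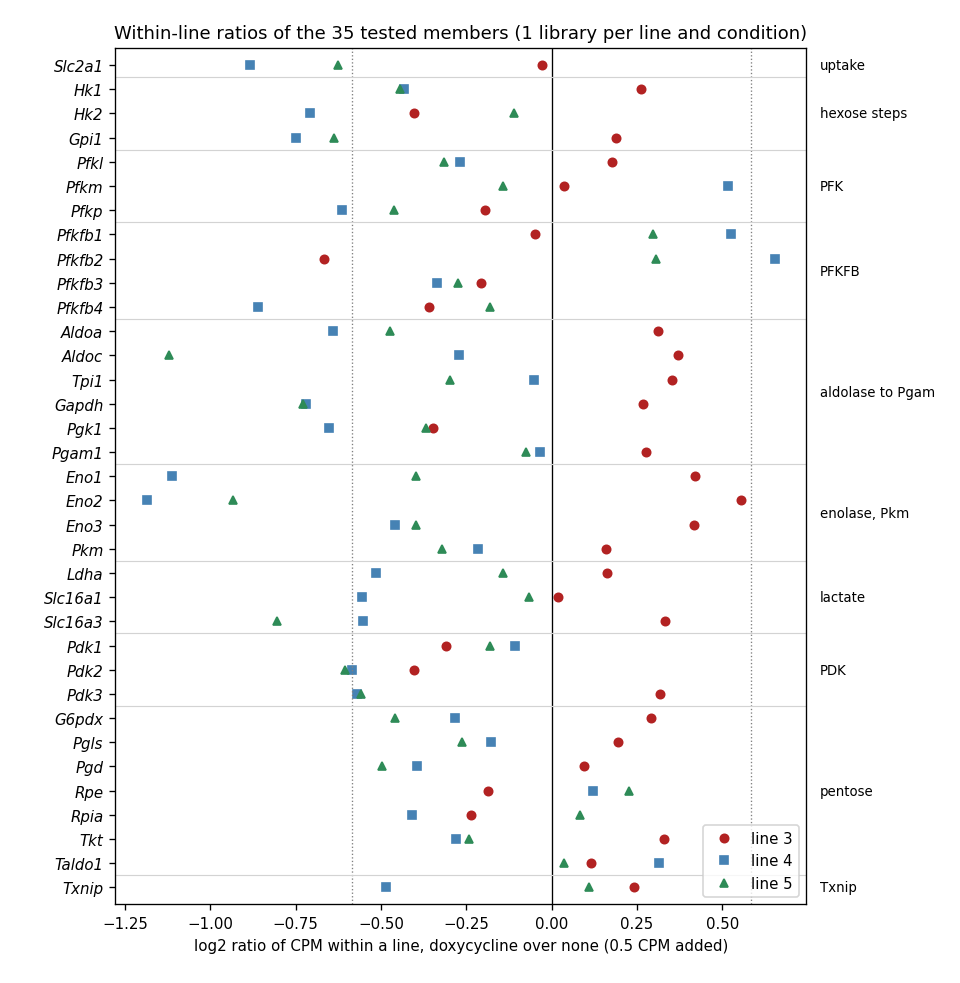
Log2 ratio of CPM, doxycycline over none with 0.5 CPM added, of the 35 tested members in each of the 3 lines, grouped by role, with dotted lines at 1.5-fold. Most points of line 3 lie right of 0 and most points of lines 4 and 5 left of it, with medians of 0.16, -0.43 and -0.32.

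Glucose enters through Slc2a1 (chromosome 4, 119108711 to 119137983, mm10), which was at 197, 139.6 and 133 CPM with doxycycline in lines 3, 4 and 5, against 201, 258 and 206 CPM without. Lines 4 and 5 were well below their untreated libraries and line 3 was level with its own, and the groups did not overlap. The log2 fold change was -0.50 (SE 0.17, edgeR, adjusted p = 0.182), and -0.69 (SE 0.13, adjusted p = 0.00692) without the doxycycline library of line 3. Slc2a3, a transporter of high affinity best known from neurons, had 3, 0 and 6 counts with doxycycline and 6, 15 and 4 counts without, near the floor of 3 counts.

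Of the enzymes that trap and rearrange the hexose, Hk2 was at 32.6, 31.2 and 33.3 CPM with doxycycline, against 43.3, 51.4 and 36.0 CPM without. The doxycycline values were almost equal in the 3 lines and lay below every untreated value. The log2 fold change was -0.43 (SE 0.15, edgeR, adjusted p = 0.188). Hk1 averaged 97.8 ± 15.1 CPM with doxycycline and 114 ± 28.1 CPM without (SD, n = 3 each; edgeR, adjusted p = 0.613). Gpi1, which turns glucose phosphate into fructose phosphate, was at 590.3, 389 and 375 CPM with doxycycline, against 518, 655 and 584 CPM without. Its line 3 value was the highest of the doxycycline group and overlapped the untreated group, while the values of lines 4 and 5 lay below all others. The log2 fold change was -0.37 (SE 0.19, edgeR, adjusted p = 0.374), and -0.61 (SE 0.12, adjusted p = 0.00925) without the doxycycline library of line 3. Exons of other genes, with Gm26762 the largest part, cover 11.5% of the Gpi1 exons. Reads there cannot be told apart since the strand setting of the counting is not given in the sources used here.

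Phosphofructokinase, which commits the hexose to glycolysis, was encoded by 3 genes with unlike values. Pfkp, the platelet form, was at 129, 113 and 98.8 CPM with doxycycline, against 147, 173 and 136 CPM without, and the groups did not overlap (log2 fold change -0.42, SE 0.14, edgeR, adjusted p = 0.172). Pfkm was at 155, 232 and 141 CPM with doxycycline, against 151, 162 and 156 CPM without. Line 4 was high with doxycycline, and the other lines differed little from their untreated libraries (edgeR, adjusted p = 0.695). Exons of other genes, with Gm26513 the largest part, cover 10.7% of the Pfkm exons. Pfkl, the liver form, averaged 222 ± 19.9 CPM with doxycycline and 245 ± 36.4 CPM without (SD, n = 3 each; edgeR, adjusted p = 0.685).

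The 4 Pfkfb genes encode enzymes that make and break a signal that activates phosphofructokinase. The signal is a fructose bisphosphate other than the one that aldolase splits. Pfkfb2 was at 3.07, 8.06 and 5.24 CPM with doxycycline, against 5.16, 4.94 and 4.15 CPM without, a member past 1.5-fold in both directions. It was lower in line 3 and higher in lines 4 and 5, and its log2 fold change over all 6 libraries was 0.21 (SE 0.32, edgeR, adjusted p = 0.804). Exons of other genes, with Gm29427 the largest part, cover 19.5% of its exons. Pfkfb4 was at 15.5, 8.89 and 13.0 CPM with doxycycline, against 20.0, 16.5 and 14.8 CPM without, lower in each line though the groups overlapped (edgeR, adjusted p = 0.326). Pfkfb3, the form with the strongest bias to synthesis, averaged 13.7 ± 2.48 CPM with doxycycline and 16.7 ± 3.14 CPM without (SD, n = 3 each; edgeR, adjusted p = 0.529). Pfkfb1, the liver and muscle form, averaged 17.2 ± 1.23 CPM with doxycycline and 14.4 ± 1.98 CPM without (SD, n = 3 each; edgeR, adjusted p = 0.459).

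Among the triose steps Aldoa (chromosome 7, 126795234 to 126800751, mm10) was at 3783, 2145 and 2355 CPM with doxycycline, against 3050.2, 3342 and 3271 CPM without. Line 3 was above and lines 4 and 5 were below the narrow untreated range. The log2 fold change was -0.22 (SE 0.23, edgeR, adjusted p = 0.696), and -0.51 (SE 0.11, adjusted p = 0.0128) without the doxycycline library of line 3. Aldoc, the aldolase of brain, was at 287, 163 and 85.0 CPM with doxycycline, against 222, 197 and 186 CPM without. It was above the untreated range in line 3 and far below it in line 5 (edgeR, adjusted p = 0.853).

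Gapdh, which oxidises glyceraldehyde phosphate, was at 3328, 2125 and 1969 CPM with doxycycline, against 2767, 3499.8 and 3261 CPM without. Line 3 lay inside the untreated range and lines 4 and 5 lay below it. The log2 fold change was -0.36 (SE 0.23, edgeR, adjusted p = 0.484), and -0.63 (SE 0.13, adjusted p = 0.00859) without the doxycycline library of line 3. The annotation held 83 pseudogenes at least 95% identical to Gapdh over 200 bases or more, of which 67 had enough counts to be tested. They held counts equal to 2.19% of those of Gapdh, and reads between them may have been shared.

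Pgk1, the kinase that makes ATP at the next step, was at 1690.0, 1241 and 1512 CPM with doxycycline, against 2150.3, 1951 and 1954 CPM without. It was lower in all 3 lines and the groups did not overlap, with line 4 the lowest. The log2 fold change was -0.45 (SE 0.17, edgeR, adjusted p = 0.238), and -0.55 (SE 0.12, adjusted p = 0.0140) without the doxycycline library of line 3. Without both libraries of line 3 it was -0.50 (SE 0.13, edgeR, adjusted p = 0.0615) and did not pass. Tpi1, which interconverts the trioses, averaged 1632 ± 248 CPM with doxycycline and 1624 ± 169.9 CPM without, and Pgam1, the mutase, 237 ± 33.3 CPM with doxycycline and 226 ± 12.8 CPM without (SD, n = 3 each; edgeR, adjusted p = 0.990 and 0.872). Both were higher with doxycycline in line 3 and lower in the other lines, as Aldoa, Aldoc and Gapdh were.

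Among the members, Eno2 and Eno1 had the widest spans of ratios between lines. Eno1, which makes phosphoenolpyruvate, was at 1034, 484 and 754 CPM with doxycycline, against 774, 1047 and 994 CPM without. In line 3 the doxycycline library was at 134% of the untreated one, in line 4 at 46.2% and in line 5 at 75.9%, and the groups overlapped (log2 fold change -0.31, SE 0.25, edgeR, adjusted p = 0.600). Eno2, the neuronal form, had 83, 16 and 19 counts with doxycycline, against 63, 47 and 48 counts without, and was higher in line 3 and lower in both others (log2 fold change -0.31, SE 0.62, edgeR, adjusted p = 0.861). Without the doxycycline library of line 3 its log2 fold change was -1.69 (SE 0.35, edgeR, adjusted p = 0.010), the largest change among the members in that fit. Without both libraries of line 3 Eno2 was at -1.55 (SE 0.37, edgeR, adjusted p = 0.0551) and did not pass. Eno3 was at 127, 74.8 and 85.8 CPM with doxycycline, against 95.1, 103 and 113 CPM without, in the same order of lines (edgeR, adjusted p = 0.824). Pkm, the pyruvate kinase, was at 2987, 2866 and 2459.9 CPM with doxycycline, against 2676, 3329.6 and 3076 CPM without, with smaller ratios in the same directions (edgeR, adjusted p = 0.788).

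At the lactate step Ldha was at 6014, 3604 and 4807 CPM with doxycycline, against 5374, 5155 and 5304 CPM without. The untreated libraries were close to each other, line 3 was above them with doxycycline and line 4 was the lowest (log2 fold change -0.13, SE 0.22, edgeR, adjusted p = 0.826). Ldhb, the heart-type subunit, had 15, 13 and 8 counts with doxycycline, against 5, 6 and 10 counts without. Slc16a3, the transporter known for lactate export, was at 277, 178 and 129 CPM with doxycycline, against 219.8, 261 and 226 CPM without. It was above the untreated range in line 3 and below it in lines 4 and 5. Its log2 fold change was -0.28 (SE 0.23, adjusted p = 0.616 in edgeR), but -0.61 (SE 0.15, adjusted p = 0.020) without the doxycycline library of line 3. Without both libraries of line 3 it was -0.66 (SE 0.17, edgeR, adjusted p = 0.0657) and did not pass. Slc16a1, the broadly expressed transporter of lactate and pyruvate, was at 135, 90.4 and 115 CPM with doxycycline, against 134, 133 and 121 CPM without, where line 4 was the lowest of the 6 (edgeR, adjusted p = 0.607).

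Pyruvate dehydrogenase kinases switch off the entry of pyruvate into the mitochondrial cycle. Pdk2 was at 7.10, 6.54 and 6.32 CPM with doxycycline, against 9.55, 10.1 and 9.87 CPM without. The groups were tight and did not overlap, and Pdk2 had the smallest p of the members (log2 fold change -0.56, SE 0.17, edgeR, adjusted p = 0.127). Pdk1, the form known as a HIF-1 target, was at 281, 320.3 and 266 CPM with doxycycline, against 348, 345 and 302 CPM without, lower in each line (edgeR, adjusted p = 0.503). Pdk3 averaged 10.4 ± 1.93 CPM with doxycycline and 12.7 ± 2.46 CPM without (SD, n = 3 each; edgeR, adjusted p = 0.534). Pdk4, the form induced by fasting, had 8, 9 and 3 counts with doxycycline, against 8, 10 and 13 counts without.

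Of the 7 genes of the pentose phosphate path, 4 were higher in line 3 and lower in lines 4 and 5 (G6pdx, Pgls, Pgd and Tkt), against 16.4% of all genes. Rpe, Rpia and Taldo1 had other orders. The median log2 ratio of the 7 genes was 0.11 in line 3, -0.28 in line 4 and -0.24 in line 5, and their adjusted p ran from 0.380 to 0.885 (edgeR). Taldo1, the transaldolase, was at 155, 187 and 163 CPM with doxycycline, against 143, 150.5 and 159 CPM without, higher in each line (log2 fold change 0.16, SE 0.12, edgeR, adjusted p = 0.578). Tkt, the transketolase, was at 522, 436 and 424 CPM with doxycycline, against 415, 529 and 501 CPM without, higher in line 3 and lower in both others (edgeR, adjusted p = 0.885).

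Of the oxidative arm, G6pdx, the entry enzyme that makes NADPH, averaged 51.0 ± 6.85 CPM with doxycycline and 56.8 ± 8.45 CPM without, and Pgd, which makes NADPH at a later step, 197 ± 23.2 CPM with doxycycline and 237 ± 26.8 CPM without (SD, n = 3 each; edgeR, adjusted p = 0.681 and 0.380). Pgls, the lactonase between them, averaged 62.3 ± 6.84 CPM with doxycycline and 65.9 ± 4.14 CPM without (edgeR, adjusted p = 0.820). All 3 were higher in line 3 and lower in lines 4 and 5. In the arm that rearranges sugars, Rpe, an epimerase, averaged 62.6 ± 5.93 CPM with doxycycline and 60.2 ± 3.41 CPM without, and Rpia, an isomerase, 54.1 ± 11.1 CPM with doxycycline and 60.9 ± 2.37 CPM without (edgeR, adjusted p = 0.876 and 0.641). Exons of other genes cover 13.6% of G6pdx, 20.6% of Pgls and 17.9% of Rpe.

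Txnip, the thioredoxin-interacting protein that restrains glucose uptake and rises with cell glucose, was at 648, 279.8 and 467 CPM with doxycycline, against 547, 392 and 433 CPM without. Line 3 was the highest library and line 4 the lowest, both with doxycycline, and the groups overlapped (log2 fold change 0.02, SE 0.26, edgeR, adjusted p = 0.980). Exons of other genes, with Gm15441 the largest part, cover 19.4% of its exons.

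Other genes of glucose use were read from a list of 62, of which 49 were tested. Of these 2 were higher with doxycycline, 0 were lower and 47 did not pass (edgeR, adjusted p under 0.05), with a median log2 fold change of 0.08. Of all genes tested 0.95% were called higher and 1.31% lower. At an unadjusted p under 0.05 there were 6 higher and 8 lower, against 8.33% and 7.95% of all genes. DESeq2 called 3 higher and 1 lower, against 4.95% of all genes in either direction. Mpc2, a subunit of the carrier that takes pyruvate into mitochondria, was at 78.5, 68.6 and 72.5 CPM with doxycycline, against 51.3, 42.7 and 47.4 CPM without. It was higher in each line by nearly the same ratio (log2 0.61, 0.68 and 0.61), and the groups did not overlap (log2 fold change 0.64, SE 0.13, edgeR, adjusted p = 0.0301). Mpc2 no longer passed when any untreated library, the doxycycline library of line 5, or line 4 or line 5 was left out, with adjusted p up to 0.279, while its log2 fold change ran between 0.57 and 0.70.

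Hk3, a hexokinase of leukocytes, had 37, 98 and 18 counts with doxycycline, against 2, 4 and 1 counts without. It was higher in each line and highest in line 4 (log2 fold change 4.31, SE 0.71, edgeR, adjusted p = 0.0117). Markers of macrophages, Mrc1 left out, summed to 189, 276 and 136 CPM with doxycycline in lines 3, 4 and 5, against 55.5, 54.7 and 56.6 CPM without. With Mrc1 counted they summed to 349, 504.5 and 517 CPM with doxycycline, against 469, 440 and 405 CPM without. On that sum line 3 was lower with doxycycline and lines 4 and 5 were higher. The part of these markers in the Hk3 result was not tested. Leaving out the untreated library of line 3 gave Hk3 an adjusted p of 0.129, that of line 4 gave 0.0557, and leaving out both libraries of line 4 gave 0.0889. The smallest p among the rest of the list belonged to Prps1, which makes phosphoribosyl pyrophosphate from ribose phosphate, to Bpgm and to Pygl, the liver glycogen phosphorylase. Prps1 averaged 133 ± 12.9 CPM with doxycycline and 93.7 ± 4.12 CPM without (SD, n = 3 each; edgeR, adjusted p = 0.0648).

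Regulators of these genes did not pass the edgeR test, 0 of 12 in either direction, with a median log2 fold change of -0.08. At an unadjusted p under 0.05 there were 2 higher and 2 lower, against 8.33% and 7.95% of all genes. DESeq2 called 0, against 4.95% of all genes. Hif1a, the oxygen-regulated subunit of HIF-1, was at 69.1, 107 and 97.8 CPM with doxycycline, against 123, 129.7 and 117 CPM without, lower in each line with groups that did not overlap (log2 fold change -0.43, SE 0.16, edgeR, adjusted p = 0.219). Mlx, the partner of MondoA and ChREBP, averaged 77.1 ± 15.0 CPM with doxycycline and 58.5 ± 3.11 CPM without, and Trp53, the gene of p53, 11.0 ± 0.191 CPM with doxycycline and 8.01 ± 0.378 CPM without (SD, n = 3 each; edgeR, adjusted p = 0.229 and 0.189).

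Of 16 known hypoxia-responsive genes outside the members, 0 passed the edgeR test in either direction, with a median log2 fold change of -0.45. At an unadjusted p under 0.05 there were 1 higher and 5 lower, against 8.33% and 7.95% of all genes. DESeq2 called 0 higher and 2 lower, against 4.95% of all genes in either direction. Their median log2 ratio was -0.04 in line 3, -0.66 in line 4 and -0.37 in line 5, and 6 of 16 were higher in line 3 and lower in both others (16.4% of all genes), while 9 of 16 were lower in all 3 lines (19.5% of all genes). Bhlhe40, a transcriptional repressor, was at 97.7, 104 and 111 CPM with doxycycline, against 152, 170.4 and 131 CPM without (log2 fold change -0.53, SE 0.13, edgeR, adjusted p = 0.0735). Vegfa, the growth factor of blood vessels, averaged 201 ± 17.1 CPM with doxycycline and 277 ± 27.1 CPM without, and Car9, a carbonic anhydrase, 4.67 ± 0.226 CPM with doxycycline and 7.27 ± 0.912 CPM without (SD, n = 3 each; edgeR, adjusted p = 0.108 and 0.141). These 3 were lower in each line with groups that did not overlap. Without the doxycycline library of line 3, 8 of the 16 passed the test against 10.7% of all genes, and 4 did without both libraries of line 3 against 5.3%. As for the members, line 3 was known to differ, so this is a description.

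**Figure D5:**
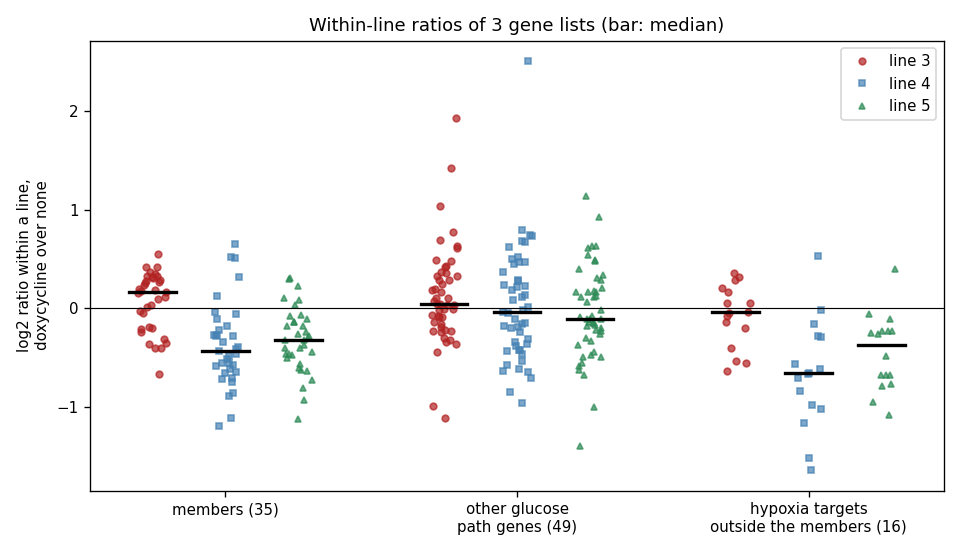
Log2 ratio of CPM within a line, doxycycline over none with 0.5 CPM added, for the tested genes of 3 lists in each of the 3 lines, with a bar at the median. The medians of members and hypoxia targets lie lower in lines 4 and 5 than in line 3. Those of the 49 other genes of glucose use are 0.04, -0.03 and -0.10.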

How the data were processed

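Total RNA of 6 libraries of mouse KP cells was sequenced, and the authors deposited raw counts of reads for each gene. The submitters' processing notes name STAR and HTSeq among the tools, beside CASAVA, Picard, bedtools, DESeq2 and R 3.3.0, and mm10 as the build. The annotation release and the strand setting were not given in the sources used here. The 5 rows that name no gene, 43.7% to 47.7% of reads, were left out. Symbols, exon lengths and overlaps came from GENCODE of the same build (48144 identifiers matched), and near-identical copies from blastn 2.17.0.

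Counts were tested with edgeR 4.0.16 in R 4.3.3 (filterByExpr, TMM scaling, quasi-likelihood test of doxycycline against none with robust shrinkage, Benjamini-Hochberg adjustment over 14531 genes). The biological coefficient of variation was 18.0%. CPM use TMM-scaled library sizes, TPM use summed exon length, and ratios within a line add 0.5 CPM. The share of the gene listed first in each of 8 families was tested with an exact 2-sided permutation test. Procedures were tested on simulated data. Members, lists and tests were chosen with earlier results of these data known. Named genes were Npm1, all 38 members, and of the other lists those that passed or otherwise at most 3 of smallest p. Values of every library were given for members past 1.5-fold in both directions and those whose call changed without line 3. They were also given for the highest 1 or 2 of each role except the Pfkfb genes, and for some others such as Hk2 and Pfkfb4.

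Libraries of a line pair by origin, since both come from the same stable line. Across genes, their residuals about the group mean had correlations of r = 0.0048, 0.0674 and 0.0276 in lines 3, 4 and 5, and of -0.102 to 0.067 between lines, so pairing rests on origin alone. Replicates were not duplicates, with a chi-square per degree of freedom of 36.0 to 108 between doxycycline libraries and 7.89 to 22.7 between untreated ones. The results were recomputed with DESeq2 1.42.0, RLE scaling, every gene with a count kept, the line as a replicate block, offsets for length and GC content with and without the block, fits that left out 1 library or 1 line, other pseudocounts and scalings within lines, and the longest transcript as length. After the data were seen, a fit without robust shrinkage and all alternatives for the other lists were added.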

Additional observations from a re-analysis of the deposited data

Results flagged for a closer look

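Several members moved in opposite directions by more than 1.25-fold in different lines, doxycycline over none. Each line had 1 library per condition, so the difference between lines was not tested. The highest and lowest log2 ratios were 0.655 (line 4) and -0.666 (line 3) for Pfkfb2, 0.371 (line 3) and -1.12 (line 5) for Aldoc, and 0.419 (line 3) and -1.11 (line 4) for Eno1. They were 0.555 (line 3) and -1.19 (line 4) for Eno2, 0.416 (line 3) and -0.46 (line 4) for Eno3, and 0.333 (line 3) and -0.804 (line 5) for Slc16a3. Pfkfb2 and Eno2 rest on the fewest counts among the 6 genes.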

How the results depend on the processing

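The call of 0 members held with RLE scaling, the line as a replicate block, DESeq2, both offset fits and no robust shrinkage. Without a filter on low counts 1 member, Slc2a1, passed (log2 fold change -0.51, SE 0.15, edgeR, adjusted p = 0.0260, over its alternatives 0.00692 to 0.735). Leaving out libraries or lines called 0 to 9 members and 62 to 1598 of all genes. No filter called 1013 genes, DESeq2 720 and the replicate block 240. The replicate block changed no call of a member, Npm1, Hk3 or Mpc2.

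Npm1 was past the threshold except without a filter (log2 fold change -3.03, adjusted p = 0.204), without the untreated library of line 3 (0.101) or of line 4 (0.0518), and without line 4 (0.179), over a range of -3.63 to -2.55. Other genes of glucose use called numbered 6 without a filter, 4 with DESeq2 and 0 to 9 when libraries or lines were left out. Hypoxia targets called numbered 4, 2 and 0 to 8 in the same settings and 1 with offsets and block, and regulators 0 to 1. Calls over all genes moved too, to 1013 without a filter, 720 with DESeq2 and 62 to 1598 when libraries or lines were left out. The changes in calls of these lists are therefore no result about the lists.

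Members past 1.5-fold higher in line 3 numbered 1 with a pseudocount of 0.1 CPM, and those lower 0 with 2 CPM and with the length and GC trend removed. In line 4 those higher numbered 0 with 2 CPM, 3 with library totals and 2 without the trend, and those lower 6 with totals. In line 5 those lower numbered 4 with totals and 4 without the trend. With totals the median log2 ratio over all genes was itself at 0.11 in line 4 and 0.06 in line 5. Shares of all genes past 1.5-fold in these settings are not given here, so these counts are no result about the members.

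Signs of small fold changes turned, none of them of a called gene. With offsets, without and with the block, Hk1 was at 0.023 and 0.021, Pfkl at 0.086 and 0.084, Pkm at 0.082 and 0.079, Pgls at 0.097 and 0.095, Rpe at -0.078 and -0.080, Tkt at 0.11 and 0.10, and Txnip at -0.017 and -0.076. Txnip was at -0.044 with the replicate block, and Tpi1 at -0.0061 without a filter. Over the fits that left out libraries or lines, Pfkm ran between -0.077 and 0.31, Pfkfb2 -0.18 and 0.56, Aldoc -0.69 and 0.16, Tpi1 -0.16 and 0.14, Pgam1 -0.047 and 0.16, Eno1 -0.72 and 0.015, Eno2 -1.69 and 0.13, Eno3 -0.42 and 0.037, Ldha -0.32 and 0.037, Pgls -0.22 and 0.0020, Rpe -0.038 and 0.18, Tkt -0.25 and 0.043, and Txnip -0.29 and 0.29. The share difference of Aldoa ran between -1.05 and 0.575 percentage points and that of Slc16a1 between -2.30 and 5.07. The causes were not tested. With 3 lines per group, changes near 1.5-fold lie close to the spread between lines, and Slc2a3, Ldhb and Pdk4 lie near the floor.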
